A study of Mus musculus with 8 samples.

Results

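The glycolytic enzymes and transporters described here are 10 mouse genes. Slc2a1 encodes the glucose carrier GLUT1, Hk2 a hexokinase, Pfkl and Pfkp the liver and platelet forms of phosphofructokinase, and Aldoa an aldolase. Pgk1 encodes phosphoglycerate kinase, Pgam1 phosphoglycerate mutase, Eno1 enolase, Ldha lactate dehydrogenase A and Slc16a3 the lactate exporter MCT4. They were chosen by gene symbol, and a gene with more than 1 probe set was read from the one with the highest mean log2 signal. Of the 10 genes, 9 were found among the 19938 genes tested. The exception was Eno1, which the platform's gene table does not list and which is therefore described from a second deposited table.

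RNA came from CGR8, a feeder-independent mouse embryonic stem cell (ESC) line, labelled with background strain C57BL/6, donor strain 129P2/OlaHsd and passages 5 to 13. The promyelocytic leukaemia gene Pml was knocked down (PML KD) with a short hairpin RNA from the lentiviral vector pLKO.1, and infected cells were selected with 2 µg/ml puromycin. The 4 groups were PML KD embryoid bodies (EBs) at day 4, WT EBs at day 4, PML KD ESCs at day 0 and WT ESCs at day 0, with 2 Affymetrix mouse gene arrays in each. ESCs grew with leukaemia inhibitory factor (LIF) at 100 U/ml, and EBs formed without LIF as hanging drops. The protocol gives 2 days for the hanging drops and 6 days for suspension culture. The protocol also names an empty vector, and the sources used here leave unstated whether the WT cells carried it. No label says whether the 2 arrays of a group stem from separate cultures. The p-values then reflect only how far these samples scatter, which may be technical.

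Glycolysis splits glucose into pyruvate in the cytosol and yields ATP without oxygen. GLUT1 brings glucose in, hexokinase traps it as glucose 6-phosphate, phosphofructokinase makes the committed step, and the lower enzymes from aldolase to enolase carry the carbon towards pyruvate. Lactate dehydrogenase then restores NAD+ by turning pyruvate into lactate, which leaves the cell through monocarboxylate carriers. Mouse ESCs are known to use both glycolysis and respiration. Many genes of the pathway are known targets of the hypoxia-inducible factors (HIF), which bind a short core sequence, and of MYC.

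Signal is given as log2 of the deposited array intensity, and each ± is a standard error (SE) from limma, fitted to all 8 arrays. A gene is said to have risen or fallen where its p adjusted over all 19938 genes was under 0.05. Median linear signals per array were 169.4 to 199.1, the SD of 1 array was 0.108 to 0.131 on the log2 scale, and the number of arrays limits the precision. Pml, the target of the hairpin, lay at 10.54 and 10.69 in PML KD EBs, against 10.88 and 10.84 in WT EBs, a difference of -0.24 ± 0.0768 (adjusted p = 0.0451) that lost its call without any 1 of the 8 arrays (adjusted p from 0.0527 to 0.243). In ESCs it lay at 11.10 and 11.07 in PML KD, against 11.70 and 11.68 in WT (-0.60 ± 0.0768, adjusted p = 0.000317). The PML KD ESC arrays stand apart in Y-linked transcripts: of 7 measured of 8 listed, 3 fell, and their summed linear signal was 504 to 582 in PML KD ESCs, against 2244 to 2286 in WT ESCs. The sum was 1987 to 2046 in PML KD EBs and 2172 to 2304 in WT EBs. Of the 3 that fell, Eif2s3y lay at 5.20 and 4.95 in PML KD ESCs, against 10.17 and 10.16 in WT ESCs. Uty lay at 5.40 and 5.77 there, against 9.18 and 9.38, and Zfy1 at 5.01 and 5.18, against 7.22 and 7.37. In PML KD EBs Eif2s3y was at 9.99 and 9.86 and Uty at 9.14 and 9.03. Most of the sum in PML KD ESCs came from Sry, which did not fall (8.51 and 8.14, against 8.03 and 7.82 in WT ESCs). For each comparison with PML KD ESCs, the knockdown or the day and any other difference of the PML KD ESC culture cannot be told apart. This covers the change over time in PML KD and the difference of the changes. Whether the PML KD EBs arose from the cells on the PML KD ESC arrays was not tested. The day 4 comparison and the change in WT cells do not use them, and a fit on only the 4 arrays of each gave the same number of member calls (5 and 8).

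The scaling of the arrays also bears on every direction below. The median difference of all genes between PML KD and WT ESCs was 0.09 on the deposited values, -0.06 when these were quantile normalized and -0.14 with 1 median set for all arrays (the median shift). The genes called higher and lower at day 0 numbered 5477 and 4955 as deposited, 3379 and 5379 after quantile normalization, and 2032 and 7414 after the shift. At day 4 they numbered 3354 and 2351 as deposited, and 5028 and 1242 after the shift. Over time the shift gave 2243 higher and 7513 lower in WT, where the deposited values gave 4849 and 5097, and 6290 and 3134 in PML KD, where they gave 4847 and 5033. For the difference of these changes the counts were 5034 and 5055 as deposited, 5471 and 2933 after quantile normalization, and 8004 and 1547 after the shift. A median shift over the genes tested alone, chosen after seeing the data, left a median of 0.02 at day 0. It gave 4162 higher and 5577 lower at day 0, 3187 and 2483 at day 4, and 5412 and 4217 for the difference. Over time it gave 3190 and 6141 in WT, and 4384 and 6049 in PML KD. Of the 9 members, 8 lie in the brightest 10% of all genes, where 25.9% of genes rose and 52.6% fell at day 0, and 38.9% rose and 13.6% fell at day 4. Slc16a3 is the exception. The part of signal strength in the members' results was not tested.

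The 250 bases before the annotated start are printed here for 4 members: Pgk1 and Pgam1, which fell in PML KD ESCs, Slc2a1, which rose at both days, and Pfkp, which fell in PML KD EBs. Sequences are from RefSeq, build GRCm38.p6, written in the direction of the gene, and capitals mark the HIF core ACGTG or GCGTG, or its reverse complement CACGT or CACGC. All 10 members matched an entry.
Pgk1: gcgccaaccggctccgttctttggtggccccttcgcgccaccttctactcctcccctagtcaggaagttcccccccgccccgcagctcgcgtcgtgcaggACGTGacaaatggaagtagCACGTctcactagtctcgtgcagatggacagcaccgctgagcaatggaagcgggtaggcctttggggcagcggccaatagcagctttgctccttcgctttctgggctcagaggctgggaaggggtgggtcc
Pgam1: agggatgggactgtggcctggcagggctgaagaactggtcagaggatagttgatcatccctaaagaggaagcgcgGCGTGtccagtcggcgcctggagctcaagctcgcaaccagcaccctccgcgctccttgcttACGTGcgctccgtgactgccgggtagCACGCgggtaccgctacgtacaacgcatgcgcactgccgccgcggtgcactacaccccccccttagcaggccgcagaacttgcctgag
Slc2a1: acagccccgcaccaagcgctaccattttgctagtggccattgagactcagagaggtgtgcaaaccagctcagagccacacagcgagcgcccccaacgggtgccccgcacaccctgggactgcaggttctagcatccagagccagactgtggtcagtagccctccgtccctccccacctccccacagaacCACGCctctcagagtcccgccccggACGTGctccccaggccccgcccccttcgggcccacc
Pfkp: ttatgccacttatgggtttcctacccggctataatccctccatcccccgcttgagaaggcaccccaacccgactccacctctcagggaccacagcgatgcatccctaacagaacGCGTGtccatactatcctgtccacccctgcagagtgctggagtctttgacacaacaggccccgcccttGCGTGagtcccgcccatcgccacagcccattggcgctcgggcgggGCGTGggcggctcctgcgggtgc
The Pgk1 window is chrX:106186850-106187099 on the plus strand, with cores at -150 and -131 before the start. Pgam1 is read from chr19:41911621-41911870 on the plus strand, with cores at -175, -114 and -88. Slc2a1 is read from chr4:119108495-119108744 on the plus strand, with cores at -61 and -36. Pfkp is read from chr13:6648772-6649021 on the minus strand, with cores at -136, -68 and -23. Each of the 10 members had a core in at least 1 of its windows. By window, 14 of 15 held a core, while 38.6% of 32851 RefSeq windows of this length did. The 15 are not separate, since overlapping windows of Aldoa and of Eno1 share cores. Among the 13115 windows with 55 to 80% G and C the share was 58.3%. That band leaves out the Aldoa window without a core (50.4%) and a Ldha window with a core (54.4%). The E-box CACGTG, the core motif of MYC, which contains ACGTG, was found in the windows of 1 member, Ldha, and in 6.02% of all windows. Members that rose and members that fell both held a HIF core. A match of letters is a description and does not show binding.

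Across the knockdown comparisons the 9 members did not move as a block. In PML KD EBs, 1 member rose (Slc2a1) and 4 fell (Hk2, Pfkp, Pfkl and Pgk1) relative to WT EBs. That is 5 of 9, where 28.6% of all genes were called, 16.8% rising and 11.8% falling. In PML KD ESCs, 2 rose (Slc2a1 and Slc16a3) and 6 fell (Hk2, Pfkl, Aldoa, Pgk1, Pgam1 and Ldha) relative to WT ESCs. That is 8 of 9, where 52.3% of all genes were called, 27.5% rising and 24.9% falling. The median member stood at -0.11 at day 4 and -0.80 at day 0, beside -0.02 and 0.09 over all genes. The arrays of PML KD and WT did not overlap for any of the 9 members at either day, a separation that 65.2% of all genes showed at day 4 and 76.7% at day 0. In bulk RNA, fewer cells of a type and less RNA per cell cannot be told apart.

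**Figure D1:**
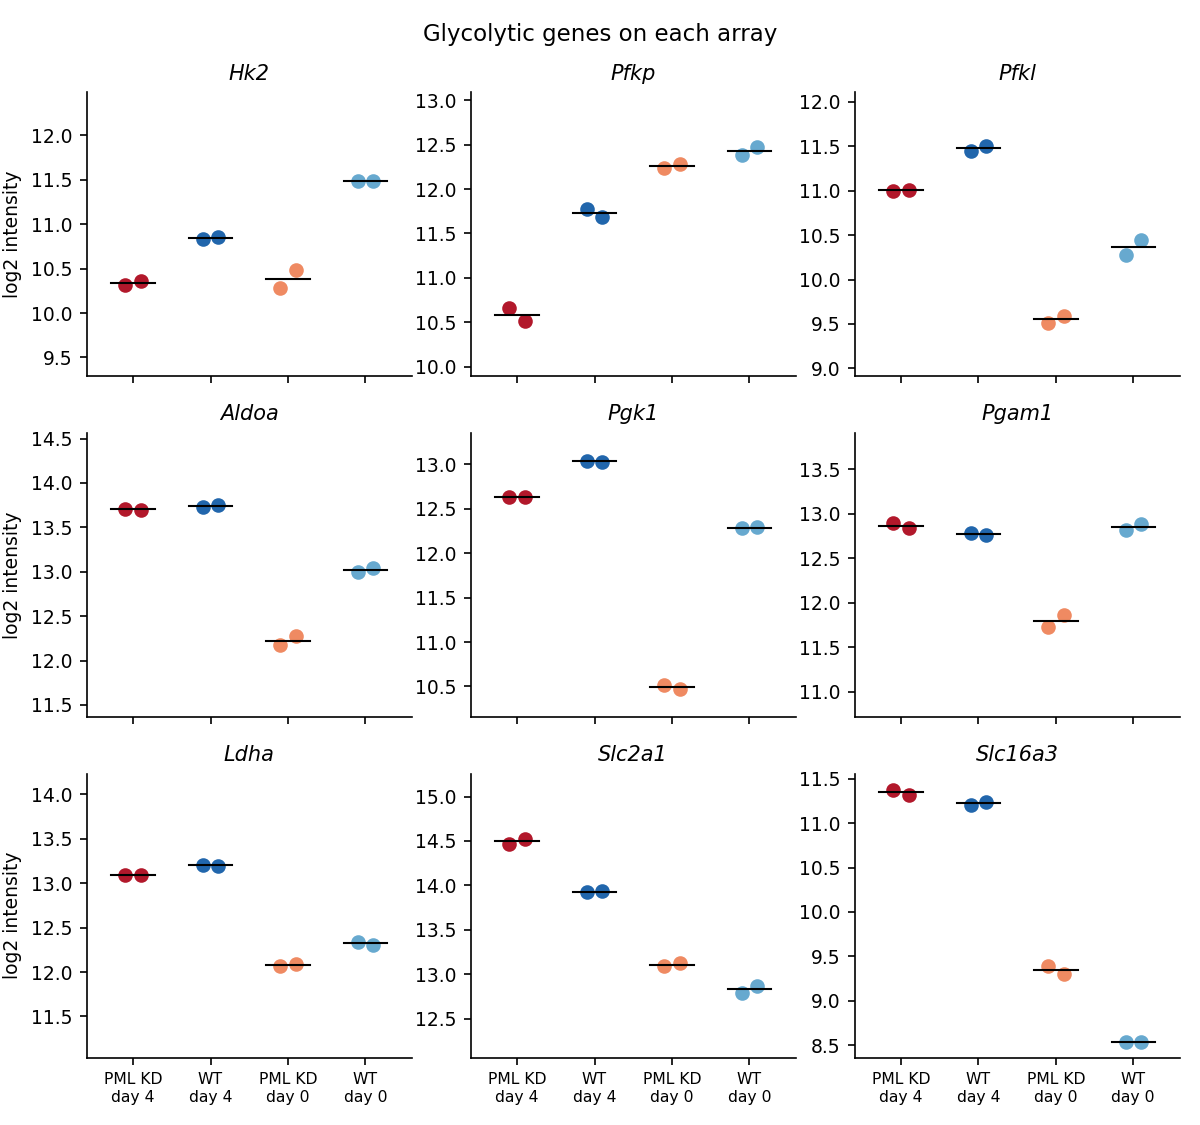
Log2 array signal of the 9 measured members, 1 panel per gene, with 1 point per array and a bar at the mean of 2 arrays for PML KD EBs, WT EBs, PML KD ESCs and WT ESCs from left to right. Each panel spans the same 3.2 log2 units, so that Pgk1 can be seen near 10.5 in PML KD ESCs and above 12.2 on the other 6 arrays, and Pfkp near 10.6 in PML KD EBs.

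The transcript of the glucose carrier was higher in the knockdown at both days. Slc2a1 (GLUT1) lay at 14.47 and 14.53 in PML KD EBs, against 13.92 and 13.93 in WT EBs, a rise of 0.57 ± 0.072 (1.49-fold, adjusted p = 0.000794). In ESCs it lay at 13.09 and 13.12 in PML KD, against 12.79 and 12.87 in WT, a rise of 0.27 ± 0.072 (adjusted p = 0.0125). Both PML KD arrays were above both WT arrays at each day. The size of the day 0 rise depended on the scaling: it was 0.62 (adjusted p = 0.00163) in the second table after quantile normalization, 0.05 (adjusted p = 0.611) after the median shift, and 0.24 (adjusted p = 0.0815) without the first WT ESC array. The median shift over the genes tested alone gave 0.21 at day 0 (adjusted p = 0.0501). In the second table after quantile normalization the day 4 rise was 0.31 (adjusted p = 0.0331). From day 0 to day 4 Slc2a1 rose by 1.39 in PML KD and by 1.09 in WT.

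Hk2, the regulated hexokinase that binds mitochondria, was lower in the knockdown at both days. Its signal was 10.31 and 10.36 in PML KD EBs, against 10.83 and 10.86 in WT EBs (-0.51 ± 0.0837, adjusted p = 0.0028). In PML KD ESCs it was 10.29 and 10.48, against 11.49 and 11.49 in WT ESCs, a fall to 0.464 of the WT level (-1.11 ± 0.0837, adjusted p = 2.47e-05). WT ESCs were the high group, and the PML KD arrays of both days overlapped near 10.3 to 10.5. Accordingly Hk2 fell with differentiation in WT, by 0.65 ± 0.0837 (adjusted p = 0.000287), while the change in PML KD was -0.05 (adjusted p = 0.67).

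The phosphofructokinase subunits Pfkp and Pfkl, which assemble into the same tetrameric enzyme, were both lower in PML KD EBs, and they changed in opposite directions with time. Pfkp lay at 10.66 and 10.52 in PML KD EBs, against 11.78 and 11.69 in WT EBs (-1.15 ± 0.0819, 2.21-fold lower, adjusted p = 5.98e-05), which ranks 77 from the lowest of 19938 genes. Its values in ESCs were close, 12.24 and 12.28 in PML KD, against 12.38 and 12.47 in WT, and the difference of -0.17 did not pass (adjusted p = 0.119). That difference was -0.39 (adjusted p = 0.00522) after the median shift. Pfkl lay at 11.002 and 11.007 in PML KD EBs, against 11.45 and 11.51 in WT EBs (-0.48 ± 0.0819, adjusted p = 0.00346). In the second table as deposited this difference was -0.32 and did not pass (adjusted p = 0.0596). Pfkl was also lower in ESCs, with 9.52 and 9.59 in PML KD, against 10.28 and 10.45 in WT (-0.81 ± 0.0819, adjusted p = 9.56e-05). Over time Pfkl rose by 1.45 in PML KD and by 1.12 in WT, whereas Pfkp fell by 1.67 in PML KD and by 0.69 in WT.

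The lower enzymes Aldoa, Pgk1, Pgam1 and Eno1 all fell in PML KD ESCs, and of these Pgk1 alone also fell in PML KD EBs. Aldoa, which cleaves fructose 1,6-bisphosphate, lay at 12.18 and 12.27 in PML KD ESCs, against 13.00 and 13.04 in WT ESCs, a fall of 0.80 ± 0.0722 (adjusted p = 5.56e-05). In EBs it was 13.70 and 13.70 in PML KD, against 13.73 and 13.75 in WT (-0.04, adjusted p = 0.715).

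Pgk1, which makes the first ATP of the pathway, showed the strongest fall among the members. It lay at 10.52 and 10.47 in PML KD ESCs, against 12.28 and 12.30 in WT ESCs (-1.79 ± 0.0684, 3.47-fold lower, adjusted p = 3.59e-06), rank 62 from the lowest of all genes. In EBs the gap was smaller, with 12.64 and 12.64 in PML KD, against 13.04 and 13.03 in WT (-0.40 ± 0.0684, adjusted p = 0.00342). Both PML KD ESC arrays lay below the other 6. The probe sets of Pgk1 number 3, and 2 of them hold identical values, so signal from near-identical gene copies cannot be told apart from that of Pgk1 itself.

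Pgam1, which shifts the phosphate of 3-phosphoglycerate, lay at 11.73 and 11.86 in PML KD ESCs, against 12.81 and 12.89 in WT ESCs (-1.06 ± 0.0788, adjusted p = 2.35e-05). In EBs it was 12.90 and 12.84 in PML KD, against 12.79 and 12.76 in WT (0.10, adjusted p = 0.401). PML KD EBs and WT ESCs overlapped at the top of its order. The probe set with the highest mean is not the one that the second table pairs with Pgam1, and that one gave -1.08 (adjusted p = 1.65e-05) at day 0 and 0.04 (adjusted p = 0.719) at day 4. The paired probe set holds values identical to those of a further Pgam1 probe set. Signal from near-identical gene copies thus cannot be told apart here either.

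Eno1 was read from the second table only, after quantile normalization. It lay at 13.19 and 13.22 in PML KD ESCs, against 13.53 and 13.58 in WT ESCs, a fall of 0.35 ± 0.0691 (adjusted p = 0.00882 over the 24408 genes of that table). In EBs its values were 13.84 and 13.85 in PML KD, against 13.83 and 13.83 in WT (0.02, adjusted p = 0.896). Like Aldoa, Eno1 fell at day 0 and did not pass at day 4.

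At the end of the pathway Ldha and Slc16a3 differed from each other. Ldha, which makes lactate, lay at 12.06 and 12.09 in PML KD ESCs, against 12.34 and 12.31 in WT ESCs, a small fall (-0.25 ± 0.0681, adjusted p = 0.0159). Over all alternatives run the difference lay between -0.47 and -0.02. Quantile normalization ended the call (-0.09, adjusted p = 0.285), as did leaving out either WT ESC array (adjusted p = 0.0811 and 0.0582) or the first PML KD ESC array (adjusted p = 0.058). In EBs Ldha was 13.10 and 13.09 in PML KD, against 13.21 and 13.20 in WT (-0.11, adjusted p = 0.284). Slc16a3, the exporter, went the other way in ESCs, with 9.39 and 9.30 in PML KD, against 8.54 and 8.54 in WT (0.80 ± 0.0726, 1.75-fold higher, adjusted p = 5.48e-05). In EBs it was 11.38 and 11.32 in PML KD, against 11.21 and 11.24 in WT (0.12, adjusted p = 0.248). At day 4 the median shift gave 0.24 (adjusted p = 0.0393).

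**Figure D2:**
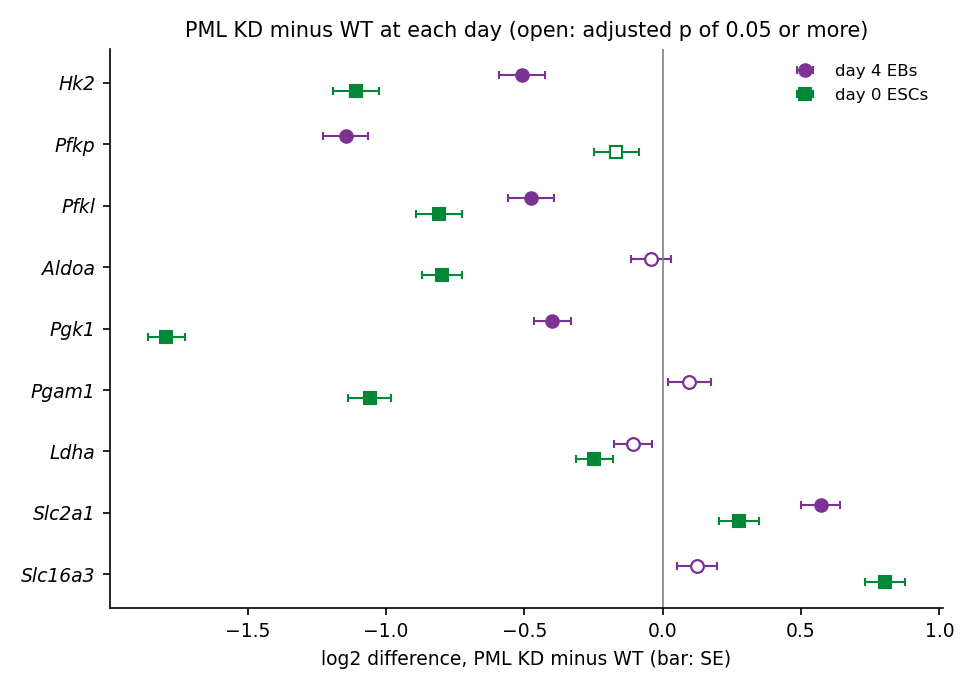
Log2 difference PML KD minus WT on the horizontal axis for each of the 9 members, with circles for day 4, squares for day 0, bars of 1 SE of the limma fit, and open marks where adjusted p was 0.05 or more. The mark farthest left is Pgk1 at day 0 (-1.79), at day 4 it is Pfkp (-1.15), and Slc2a1 lies right of 0 at both days.

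Most members were higher at day 4 than at day 0 in both PML KD and WT. In PML KD this rests on the ESC arrays that stand apart in Y-linked transcripts, so day and culture cannot be told apart. In PML KD, 7 of 9 members rose and 1 fell, where 49.6% of all genes were called (24.3% rising, 25.2% falling), with a median of 1.39 over the members and -0.06 over all genes. In WT, 6 rose and 2 fell, where 49.9% were called (24.3% rising, 25.6% falling), with a median of 0.75 over the members and 0.06 over all genes. The arrays of the 2 days did not overlap for 8 of the 9 members in PML KD, where 74.5% of genes showed this, nor for any in WT, where 75.0% did. In the brightest 10% of genes, which holds 8 of the members, 43.8% of genes rose and 30.2% fell in PML KD, and 19.8% rose and 56.0% fell in WT.

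The exporter Slc16a3 rose most in WT, by 2.68 ± 0.0726 (6.42-fold, adjusted p = 9.05e-08), and by 2.00 ± 0.0726 in PML KD (4.004-fold). Pgk1 rose most in PML KD, by 2.14 ± 0.0684 (4.41-fold, adjusted p = 2.07e-07), and by 0.75 ± 0.0684 in WT. Aldoa rose by 1.48 in PML KD and by 0.72 in WT, and Ldha by 1.02 in PML KD and by 0.88 in WT. Pgam1 rose by 1.08 ± 0.0788 in PML KD (adjusted p = 1.15e-05), and its change in WT was -0.08 (adjusted p = 0.432). That WT change passed in opposite directions under other scalings: it was -0.29 after the median shift (adjusted p = 0.0172) and 0.26 in the second table after quantile normalization (adjusted p = 0.0255). Eno1 in that table rose by 0.64 ± 0.0691 in PML KD (adjusted p = 0.00058) and by 0.28 ± 0.0691 in WT (adjusted p = 0.0165). Whether the authors scaled the days of that table together is unstated, so these changes over time rest on the quantile normalization. The comparisons over time use the same arrays as the knockdown comparisons, so they are not independent of them.

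Markers of the cell types moved with the days. Of 15 pluripotency markers, all measured, 13 fell and 1 rose in each line with time. Of all genes, 25.2% fell in PML KD and 25.6% in WT, and 24.3% rose in each. The summed linear signal of the 15 was 43040 to 43737 in PML KD EBs and 37657 to 37980 in WT EBs. It was 84655 to 86920 in PML KD ESCs and 98431 to 100435 in WT ESCs. In PML KD EBs 6 rose and 4 fell relative to WT EBs, with a median of 0.09. In PML KD ESCs 1 rose and 8 fell relative to WT ESCs, with a median of -0.31. Of all genes, 16.8% rose and 11.8% fell at day 4, and 27.5% rose and 24.9% fell at day 0. Of the 15 markers of visceral endoderm, the outer layer of the EB, all fell in PML KD EBs relative to WT EBs. Their median was -1.25, beside -0.02 over all genes. Their summed signal was 32669 to 32833 in PML KD EBs and 81222 to 81946 in WT EBs, beside 20484 to 21043 in PML KD ESCs and 12233 to 12448 in WT ESCs. At day 0 the higher sum in PML KD ESCs lay mostly in Apoe, an apolipoprotein gene, at 14.13 and 14.19 in PML KD ESCs, against 13.19 and 13.19 in WT ESCs. Of the 15, 2 rose and 5 fell there, where 27.5% of all genes rose and 24.9% fell. The median was -0.08, beside 0.09 over all genes. For primitive streak and mesoderm the sums were 2051 to 2072 in PML KD EBs and 2608 to 2631 in WT EBs. The lower sum lay mostly in Eomes, at 8.86 and 8.94 in PML KD EBs, against 9.97 and 10.06 in WT EBs. Of the 9 markers measured of 10 listed, 2 rose and 2 fell in PML KD EBs, with a median of -0.18. For neuroectoderm the sums were 3511 to 3716 in PML KD EBs and 3637 to 3769 in WT EBs, with 3 of 9 markers rising and 0 falling. An array signal has no true zero, so no marker is called absent. The part of cell makeup in the members' results was not tested.

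**Figure D3:**
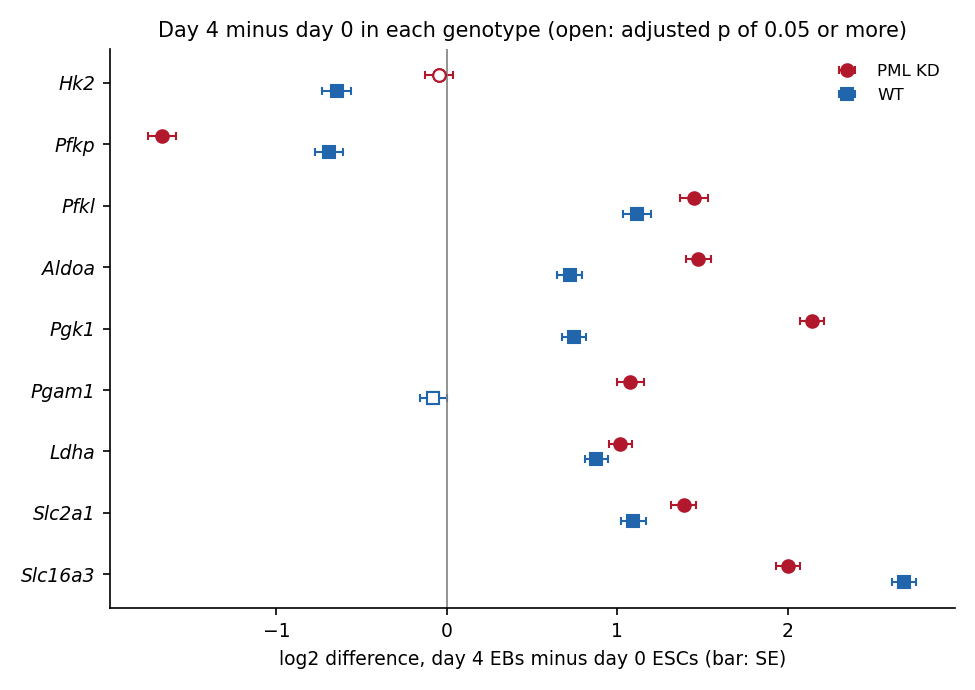
Log2 difference day 4 minus day 0 on the horizontal axis for each of the 9 members, with circles for PML KD, squares for WT, bars of 1 SE of the limma fit, and open marks where adjusted p was 0.05 or more. Slc16a3 lies farthest right in WT (2.68) and Pgk1 in PML KD (2.14), and Pfkp is left of 0 in both.

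The change with time differed between the lines for 8 of the 9 members, where 50.6% of all genes were called (25.2% higher in PML KD, 25.4% lower). In the brightest 10% of genes, which holds 8 of the members, 74.6% were called, with 19.6% lower in PML KD and the others higher. The difference of the changes, PML KD minus WT, was positive for Pgk1 (1.395 ± 0.0967, adjusted p = 2.55e-05), Pgam1 (1.16 ± 0.111, adjusted p = 9.05e-05), Aldoa (0.755 ± 0.102, adjusted p = 0.00049) and Hk2 (0.60 ± 0.118, adjusted p = 0.0035). It was negative for Pfkp (-0.98 ± 0.116, adjusted p = 0.000242) and Slc16a3 (-0.68 ± 0.103, adjusted p = 0.000878). These 6 kept their call after quantile normalization and after the median shift, but the Hk2 call was lost after quantile normalization over the genes tested alone (0.24, adjusted p = 0.0876). Over all alternatives run, the difference of Hk2 lay between 0.24 and 0.94, that of Pfkp between -1.24 and -0.64, and that of Slc16a3 between -0.92 and -0.34. The differences of Pfkl (0.33, adjusted p = 0.041) and Slc2a1 (0.30, adjusted p = 0.0397) were weaker. After quantile normalization the differences of Pfkl and Slc2a1 were 0.11 (adjusted p = 0.443) and 0.09 (adjusted p = 0.527), and the Slc2a1 call was lost without any 1 of the 8 arrays (adjusted p from 0.0536 to 0.131). For Pfkl it was lost without 6 of the 8 arrays, all but the first WT ESC array and the second PML KD ESC array (adjusted p from 0.0616 to 0.145 over the 6). Ldha did not pass (0.14, adjusted p = 0.25). After the median shift its value was 0.48 and passed (adjusted p = 0.00329). The median over all genes was -0.11 here, and relative to it Pgk1 stood at 1.50 and Pfkp at -0.87.

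The members are grouped here by the order of their 4 group means. Pfkl, Aldoa, Pgk1 and Ldha ran from WT EBs at the top through PML KD EBs and WT ESCs to PML KD ESCs at the bottom. In Aldoa the gap between PML KD EBs and WT EBs was 0.04, and in Ldha it was 0.11, neither of which passed the test. The carriers Slc2a1 and Slc16a3 ran from PML KD EBs through WT EBs and PML KD ESCs to WT ESCs, and in Slc16a3 the difference between the top neighbours, 0.12, did not pass the test. Hk2 and Pfkp were highest in WT ESCs and lowest in PML KD EBs, but the lowest neighbours of Hk2 (-0.05 between PML KD EBs and PML KD ESCs) and the highest of Pfkp (-0.17 between PML KD ESCs and WT ESCs) did not pass the test. The middle groups of Hk2 and Pfkp were reversed: WT EBs lay above PML KD ESCs by 0.46 in Hk2 and below them by 0.53 in Pfkp. Pgam1 was lowest in PML KD ESCs, and its other 3 group means lay within 0.10 of each other.

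**Figure D4:**
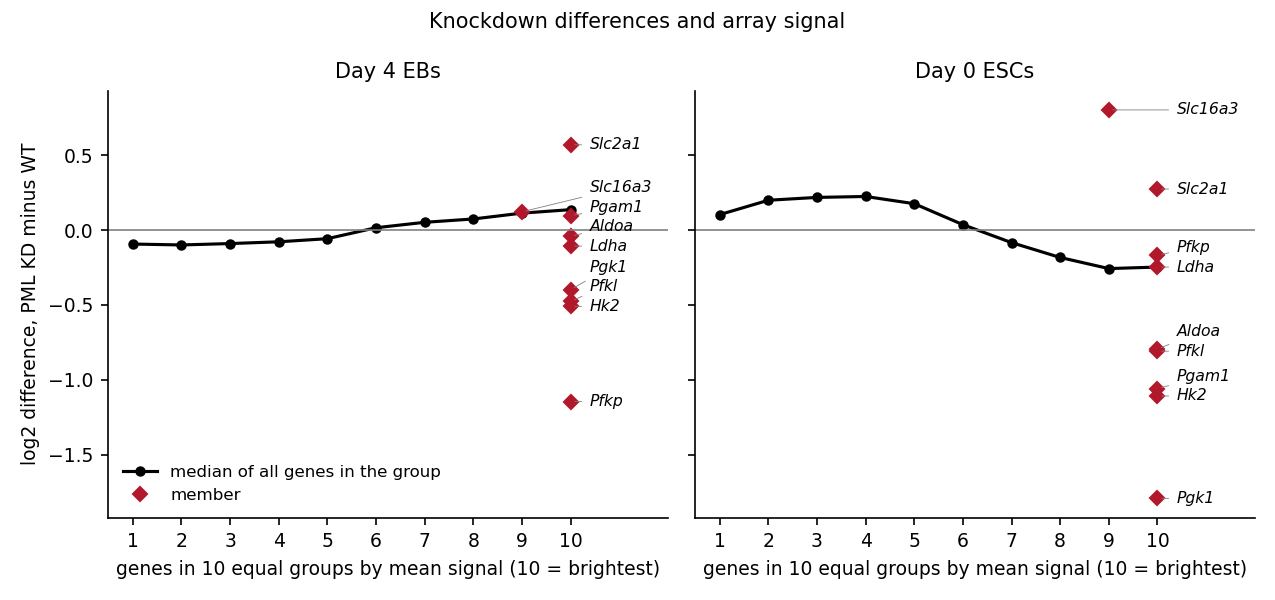
The 19938 genes in 10 equal groups by mean signal on the horizontal axis (10 is brightest) and log2 difference PML KD minus WT on the vertical axis, at day 4 on the left and day 0 on the right, with black points for the median of all genes of a group and red diamonds for the members. In the brightest group the median is 0.14 at day 4 and -0.25 at day 0, and Pgk1 lies below it at day 0 (-1.79).

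Other genes of glycolysis were listed by role, and 28 of 33 were among the 19938 genes tested. In PML KD EBs 6 rose and 5 fell relative to WT EBs, with a median of -0.01, and in PML KD ESCs 7 rose and 9 fell relative to WT ESCs, with a median of 0.00. Of all genes, 16.8% rose and 11.8% fell at day 4, and 27.5% rose and 24.9% fell at day 0. The day 0 split depends on the scaling, with 5 rising and 11 falling after quantile normalization and 2 rising and 13 falling after the median shift. Triose phosphate isomerase, Tpi1, lay at 11.86 and 11.83 in PML KD EBs, against 12.05 and 12.09 in WT EBs (-0.23, adjusted p = 0.0499, and -0.11, adjusted p = 0.306, after the median shift). In ESCs it lay at 9.67 and 9.56 in PML KD, against 10.52 and 10.53 in WT (-0.91 ± 0.0733, adjusted p = 3.22e-05). Both PML KD arrays were below both WT arrays at each day. Pyruvate kinase, Pkm, fell by 0.54 at day 0 (adjusted p = 0.0009) and was at -0.22 at day 4 (adjusted p = 0.0816).

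Isoforms of the members' enzymes are described beside them. Ldhb, the lactate dehydrogenase subunit that favours pyruvate, was 11.30 and 11.07 in PML KD EBs, against 10.49 and 10.56 in WT EBs, a rise of 0.66 ± 0.0937 (adjusted p = 0.00139). In ESCs it was 10.83 and 10.94 in PML KD, against 11.90 and 11.92 in WT, a fall of 1.03 ± 0.0937 (adjusted p = 5.73e-05). The change of Ldhb with time thus differed between the lines by 1.69 ± 0.133 (adjusted p = 3.82e-05), where that of Ldha did not pass. Eno3, the muscle enolase, rose by 1.50 ± 0.0823 in PML KD EBs (adjusted p = 2e-05), and Hkdc1, a hexokinase-like gene, fell by 1.02 ± 0.0798 there (adjusted p = 8.69e-05). Aldoc, another aldolase, fell by 1.12 in PML KD ESCs and by 0.53 in PML KD EBs. Eno2, the neuronal enolase, rose by 0.70 in PML KD ESCs and was at -0.19 in EBs (adjusted p = 0.181). Bpgm, the mutase of red cells, fell by 1.01 in PML KD ESCs and rose by 0.52 in PML KD EBs. Hk1 fell by 0.38 at day 0, a call lost after quantile normalization (-0.13, adjusted p = 0.142), and stood at 0.01 at day 4 (adjusted p = 0.941), where the second table after quantile normalization gave a rise of 1.16 (adjusted p = 0.00089). In that table at day 4 Eno2 passed as lower (-0.59, adjusted p = 0.0136), and Bpgm (0.52, adjusted p = 0.131) and Pfkm (0.24, adjusted p = 0.0549) did not pass. Pfkm fell by 0.48 in PML KD ESCs and rose by 0.31 in PML KD EBs.

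Among the other carriers, Slc16a1 (MCT1) lay at 12.15 and 12.22 in PML KD EBs, against 12.32 and 12.32 in WT EBs (-0.14, adjusted p = 0.216). In ESCs it lay at 10.65 and 10.64 in PML KD, against 9.94 and 10.06 in WT, a rise of 0.64 ± 0.0756 (adjusted p = 0.000202). The day 4 value of Slc16a1 passed as lower in the second table after quantile normalization (-0.42, adjusted p = 0.0104) and after quantile normalization over the genes tested alone (-0.26, adjusted p = 0.0272). It rose by 1.54 in PML KD and by 2.32 in WT with time. Bsg, the chaperone of both lactate carriers, rose by 0.21 at day 0 (adjusted p = 0.0385, with -0.02 after the median shift) and was at 0.13 at day 4 (adjusted p = 0.21, with 0.25 and adjusted p = 0.0327 after the median shift). Slc2a3 (GLUT3) rose by 0.38 at day 0 and by 0.23 at day 4 (adjusted p = 0.0395), and the day 4 call was lost after quantile normalization (adjusted p = 0.0642) and the day 0 call after the median shift (0.16, adjusted p = 0.101). Pfkfb3, which makes the activator of phosphofructokinase, did not pass at either day (-0.23, adjusted p = 0.179, at day 4, and -0.17, adjusted p = 0.254, at day 0). At day 0 it passed as lower after quantile normalization (-0.38, adjusted p = 0.0379), after the median shift (-0.39, adjusted p = 0.0231) and in the second table after quantile normalization (-1.78, adjusted p = 0.00602). Pfkfb3 rose with time by 1.73 in PML KD and 1.80 in WT.

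Genes that decide the fate of pyruvate in mitochondria were mostly lower in PML KD ESCs. Of 14 listed, 13 were among the 19938 genes tested. Of the 13, 6 rose and 4 fell in PML KD EBs, with a median of 0.16, and 9 fell and 4 did not pass in PML KD ESCs, with a median of -0.73. Of all genes, 16.8% rose and 11.8% fell in EBs (median -0.02), and 27.5% rose and 24.9% fell in ESCs (median 0.09). Pdha1, a subunit of pyruvate dehydrogenase, lay at 11.30 and 11.24 in PML KD EBs, against 10.86 and 10.85 in WT EBs (0.42 ± 0.0714, adjusted p = 0.00341). In ESCs it lay at 10.95 and 11.02 in PML KD, against 12.06 and 12.10 in WT (-1.09 ± 0.0714, adjusted p = 1.44e-05). WT ESCs were the high group, and in EBs the PML KD arrays were above the WT arrays. Its partner Pdhb rose by 0.53 in EBs and fell by 1.04 in ESCs, and citrate synthase, Cs, rose by 0.38 in EBs and fell by 0.81 in ESCs. Pdk1, the kinase that blocks pyruvate dehydrogenase, fell by 0.48 ± 0.0718 in PML KD EBs (adjusted p = 0.00177) and was at 0.16 in ESCs. Quantile normalization gave 0.33 for it in ESCs (adjusted p = 0.00389). Pdk4 fell at both days, by 0.51 in EBs and by 1.17 in ESCs.

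**Figure D5:**
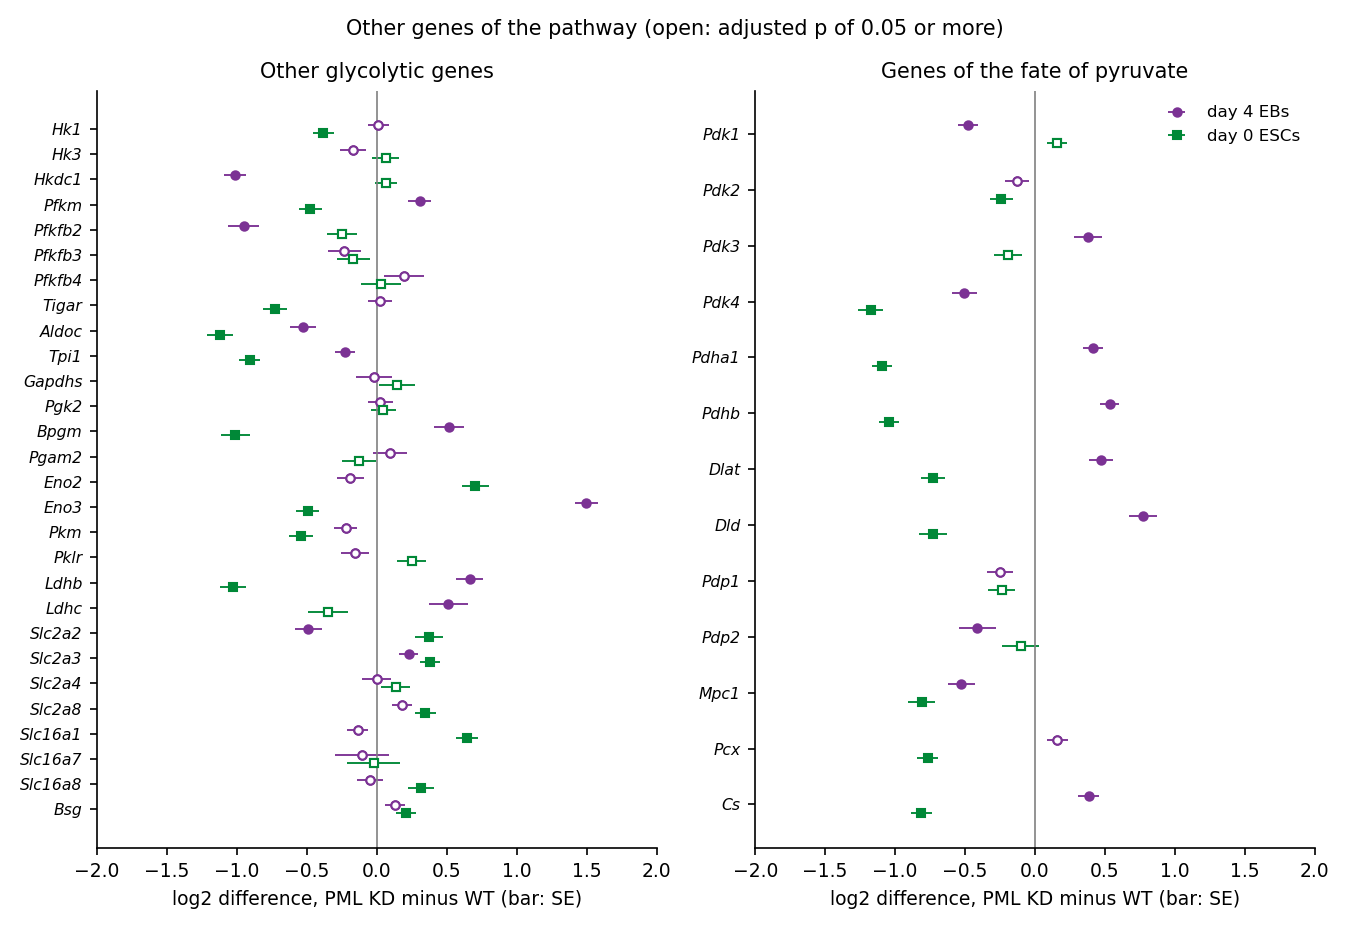
Log2 difference PML KD minus WT on the horizontal axis, 1 row per gene, for the 28 other genes of glycolysis on the left and the 13 genes of pyruvate fate on the right, with circles for day 4, squares for day 0, bars of 1 SE, and open marks where adjusted p was 0.05 or more. Ldhb (0.66 at day 4, -1.03 at day 0) and Pdha1 (0.42 at day 4, -1.09 at day 0) have circles right of 0 and squares left of it.

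Regulators known to act on these genes were described from a list of 20, of which 18 were among the genes tested. In PML KD EBs 4 rose and 4 fell, with a median of -0.13. In PML KD ESCs 2 rose and 13 fell, with a median of -0.31, and the 13 became 10 after quantile normalization and 14 after the median shift. After quantile normalization over the genes tested alone 7 fell. Of all genes, 16.8% rose and 11.8% fell at day 4, and 27.5% rose and 24.9% fell at day 0. Myc, whose product binds the E-box, lay at 9.19 and 9.25 in PML KD EBs, against 8.05 and 8.22 in WT EBs, a rise of 1.08 ± 0.111 (adjusted p = 0.000311). In ESCs it lay at 7.92 and 8.21 in PML KD, against 10.14 and 10.05 in WT, so that it fell by 2.03 ± 0.111 (adjusted p = 8.34e-06). Hif1a, the oxygen-regulated HIF subunit, was 10.51 and 10.59 in PML KD EBs, against 10.03 and 9.89 in WT EBs (0.59 ± 0.0797, adjusted p = 0.00115). Its ESC values were 9.80 and 9.79 in PML KD, against 10.70 and 10.63 in WT (-0.87 ± 0.0797, adjusted p = 5.88e-05). Both transcripts were thus below WT in PML KD ESCs and above WT in PML KD EBs. Lin28a, an RNA-binding regulator of metabolism, fell by 1.20 in PML KD ESCs, and Lin28b rose by 1.53 in PML KD ESCs and by 0.89 in PML KD EBs.

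Known HIF targets outside glycolysis, 16 of 16 measured and sharing Egln3 with the regulators, gave 14 falling and 2 that did not pass in PML KD EBs, with a median of -0.63. The 14 became 11 after the median shift. Of all genes, 11.8% fell at day 4, with a median of -0.02. In PML KD ESCs 4 rose and 6 fell, with a median of 0.02, where 27.5% of all genes rose and 24.9% fell. P4ha1, a collagen prolyl hydroxylase, lay at 11.17 and 11.20 in PML KD EBs, against 12.32 and 12.37 in WT EBs (-1.16 ± 0.112, adjusted p = 0.000238). Bnip3, a mitophagy receptor, was 10.88 and 10.87 in PML KD EBs, against 11.82 and 11.72 in WT EBs (-0.90 ± 0.0884, adjusted p = 0.000263). In PML KD ESCs Bnip3 fell by 1.29, but in the second table after quantile normalization it was at -0.14 there and did not pass (adjusted p = 0.182). The oxidoreductase gene Ero1a rose by 1.16 in PML KD ESCs. With time 12 of the 16 rose in PML KD, with a median of 1.27, and 14 rose in WT, with a median of 1.80. Of all genes, 24.3% rose in each line.

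Genes whose profile over the 8 arrays lay nearest to that of Pgk1 were sought among all genes tested, by the root mean square (RMS) difference of centred log2 values. They were n-R5s136 (0.149), Mt2 (0.155), Meg3 (0.168), Fmr1nb (0.184) and Dnmt3b (0.189). Mt2 is a metallothionein and lay at 13.72 and 13.63 in PML KD EBs, against 13.75 and 13.73 in WT EBs, and at 11.10 and 11.20 in PML KD ESCs, against 13.11 and 13.05 in WT ESCs. The nearest other member was Pfkl (0.362), then Aldoa (0.414), and the farthest was Pfkp (1.46). The mean profile of the 9 members lay nearest to Pi4k2b (0.0701), Rnf19a (0.0705), Retreg1 (0.0706), Tbca (0.0861) and Rcan1 (0.0878). Of the members, Ldha (0.131) and Aldoa (0.178) were closest to that mean, and Pfkp (1.06) and Slc16a3 (0.909) were farthest from it.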

How the data were processed

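The authors deposited linear intensity values for 35556 probe sets on 8 arrays. They name the Transcriptome Analysis Console in the submitters' processing notes, with the background correction and normalization unstated in the sources used here. The platform table lists 23410 probe sets, 21789 with 1 symbol and 1621 with several. Only those with 1 symbol were used, and 12146 are not listed. For the 999 genes with more than 1 probe set the highest mean log2 value was taken, which left 19938 genes. A deposited workbook, the second table, holds the authors' log2 values for 24451 Ensembl genes, summarised from constitutive exons per the file headers. Its 4 columns of group means were not used.

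Log2 of the intensities was taken without an offset. limma 3.58.1 in R 4.3.3 (lmFit, contrasts.fit, eBayes) was fitted to 4 group means with 4 residual degrees of freedom, for 5 contrasts, with Benjamini-Hochberg adjustment over all genes, two-sided. On data simulated for the day 0 comparison with 19938 genes, 9 of 67 genes changed by 0.3 on the log2 scale, 41 of 67 changed by 0.5 and 66 of 66 changed by 1 were called, with 13 false calls. Only these few genes were changed there, while 52.3% of all genes were called at day 0 in the data. The adjusted threshold was therefore stricter in the simulation, and its rates do not carry over to the data. Deviations within groups correlated at -0.0821 to 0.0852 over 6 pairs of groups, so equal replicate numbers were treated as unrelated samples. The members, gene lists and tests were chosen with earlier results of these data known. Named genes are Pml, all members, a set of other glycolytic genes whether they passed or not, and up to 4 per list and comparison with the smallest adjusted p. The text names a selection of these, and Aldoc, Bpgm and others that were named in one comparison are given in both. The 5 genes nearest in profile exclude predicted genes. Alternatives were quantile normalization, a median shift, the second table, other filters and probe sets, a replicate block, and leaving out each array.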

Additional observations from a re-analysis of the deposited data

Results flagged for a closer look

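The change from day 0 to day 4 differed between PML KD and WT, by the test of the difference itself, for 8 of the 9 measured members. As log2 differences of the changes, PML KD minus WT, these were Hk2 0.60, Pfkp -0.98, Pfkl 0.33, Aldoa 0.755, Pgk1 1.395, Pgam1 1.16, Slc2a1 0.30 and Slc16a3 -0.68. All of them rest on the PML KD ESC arrays that stand apart in Y-linked transcripts. Those of Pfkl and Slc2a1 depended on the scaling: they were 0.11 and 0.09 after quantile normalization, and neither passed. Slc2a1 was at -0.31 in the second table after quantile normalization. Over all genes 50.6% passed the same test, and in the brightest 10%, which holds 8 of the members, 74.6% did.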

How the results depend on the processing

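Over 21 alternatives, 45 member results gave 909 alternative values. Of these, 859 kept their direction and their side of the threshold, 29 lost a call, 9 gained one and 12 changed sign. Many of the 909 could not change sign. The replicate block, another estimate of the spread, a floor on dim values, the signal filter and the fits on 4 arrays left the members' log2 differences unchanged. The other probe sets bear on Pgk1 and Pgam1 only, and leaving out 1 array leaves the differences that do not use it as they were. The tally is therefore no measure of robustness. With the numbers of the arrays as a replicate block, the counts of members called were 5 at day 4, 8 at day 0, 8 in WT over time, 8 in PML KD over time and 8 for the difference of changes, as without it, and no member's call changed. Leaving out 1 array at a time gave 5 members at day 4, 6 to 8 at day 0, 8 in each line over time and 6 to 7 for the difference. Quantile normalization over the 19938 genes tested alone, chosen after seeing the data, left 5 members called for the difference (3 higher and 2 lower), with Pfkl at -0.0052, and without Hk2 (0.24, adjusted p = 0.0876), which was called on the deposited values at 0.60. Signs turned in these further cases, and the cause was not tested. After the median shift Aldoa was at 0.0742 and Ldha at 0.0089 at day 4, and Hk2 at 0.0842 in PML KD over time. Aldoa at day 4 was 0.13 after quantile normalization over the genes tested alone and 0.0111 in the second table as deposited. The second table after quantile normalization gave Pfkp 0.0466 at day 0, Pgam1 -0.0774 at day 4 and 0.26 in WT over time, and for the difference Ldha -0.0722 and Slc2a1 -0.31. Leaving out 1 array at a time, Hk2 in PML KD over time ranged from -0.1448, without the first PML KD ESC array, to 0.0507, without the second. Of these values only the 0.26 of Pgam1 passed the test. The second table as deposited was compared within days only.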
